A study of Mus musculus with 8 samples.

Results

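Wwc1 and 9 other genes of the Hippo-YAP pathway were followed in brown adipose tissue of mice labelled as an Ogt knockout in brown adipocytes. The 10 genes, picked by name out of 54532 in the deposited table, were Wwc1, Wwc2, Nf2, Lats1, Lats2, Yap1, Wwtr1, Tead1, Cyr61 and Ctgf. Wwc1 was picked for its values in the comparison described here, and the other genes as its pathway with those results known, so their values are given as a description without p-values. The Hippo pathway is a kinase cascade that restrains growth: the scaffolds encoded by Wwc1 (KIBRA), Wwc2 and Nf2 (Merlin) bring the LATS kinases to the membrane and help to activate them. LATS phosphorylates the coactivators YAP and TAZ (encoded by Yap1 and Wwtr1), which are then kept in the cytoplasm or degraded. Unphosphorylated YAP and TAZ enter the nucleus, bind TEAD factors and switch on genes such as Cyr61 (CCN1) and Ctgf (CCN2), secreted matrix proteins known for effects on vessels and fibrosis. In fat, YAP and TAZ are known to respond to cell shape and tension and to influence the commitment of precursors to adipocytes.

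The series asked, by its title, how O-GlcNAc signalling in adipocytes bears on the vessels of brown fat, the depot that burns lipid to make heat. The 8 mouse samples formed 2 groups of 4: OGTBKO, a knockout of Ogt (the transferase that attaches O-GlcNAc to intracellular proteins) specific to brown adipocytes, and WT, wild type. Mice of both groups were kept at 23 °C on standard chow, induced after 8 weeks with an agent that the labels spell gomaxifen, and sampled 2 months later. The sources used here give neither the Cre driver nor the sex of the animals nor which exons were removed. Whether each sample came from 1 animal is not said outright, so p-values measure only the spread between these samples.

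Values are FPKM (fragments scaled to gene length and library size, so levels of different genes can be compared), and between 13393962 and 15897920 reads per library lay in genes. The targeted gene was lower in each OGTBKO library: Ogt averaged 12.4 ± 1.65 FPKM in OGTBKO tissue and 26.0 ± 4.80 FPKM in WT tissue (SD, n = 4 each; log2 -1.03 ± 0.14 SE, limma adjusted p = 0.00511). The tissue was whole, although the labels call the cells adipocytes: Ucp1 and Adipoq, which define brown fat and adipocytes, were present (Ucp1 averaged 1006 ± 79.3 FPKM in OGTBKO and 2051 ± 485 FPKM in WT, SD, n = 4 each), with the endothelial marker Pecam1 at 18.3 to 23.8 FPKM in OGTBKO and 16.0 to 23.7 FPKM in WT libraries. In whole tissue, fewer cells of a type and less RNA per cell cannot be told apart. Skeletal muscle transcripts stood out in both libraries numbered 1: the 8 muscle markers summed to 1464 FPKM in OGTBKO 1 and 492 FPKM in WT 1, and Acta1 (skeletal actin) to 625 and 255 FPKM in these libraries, so results were also computed without both. Across all 13171 genes tested, 1068 were higher and 982 lower in OGTBKO (limma, adjusted p under 0.05). Scaled to library totals, the split was 980 higher and 249 lower.

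Wwc1 was close to silent in WT brown fat and clearly expressed in OGTBKO brown fat. Wwc1 (ENSMUSG00000018849, mm10 chromosome 11, 35838400 to 35980527, minus strand, 4960 bases of counted sequence) measured 2.19, 2.05, 3.35 and 2.95 FPKM in OGTBKO 1 to 4. In WT 1 to 4 it was listed at 0, 0.0282, 0 and 0 FPKM. The groups did not overlap, and the lowest OGTBKO library stood far above the only WT library with any read. In back-calculated reads, Wwc1 had 178, 164, 299 and 204 in OGTBKO 1 to 4 and 0, 2, 0 and 0 in WT 1 to 4. The sums were 845 reads in OGTBKO and 2 in WT. Scaled by the summed FPKM denominators of each group, their ratio was 361, with an exact 95% interval of 99.8 to 2990 that covers counting error only. A count of 0 allowed up to 0.0370 to 0.0571 FPKM in the 3 WT libraries without a read (3 counts each). On the log2(FPKM + 0.5) scale the difference was 2.61 ± 0.17 (SE), a size set by the pseudocount: it was 4.66 with a pseudocount of 0.1 FPKM and 1.84 with 1 FPKM. It was 2.67 without both libraries numbered 1.

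**Figure D1:**
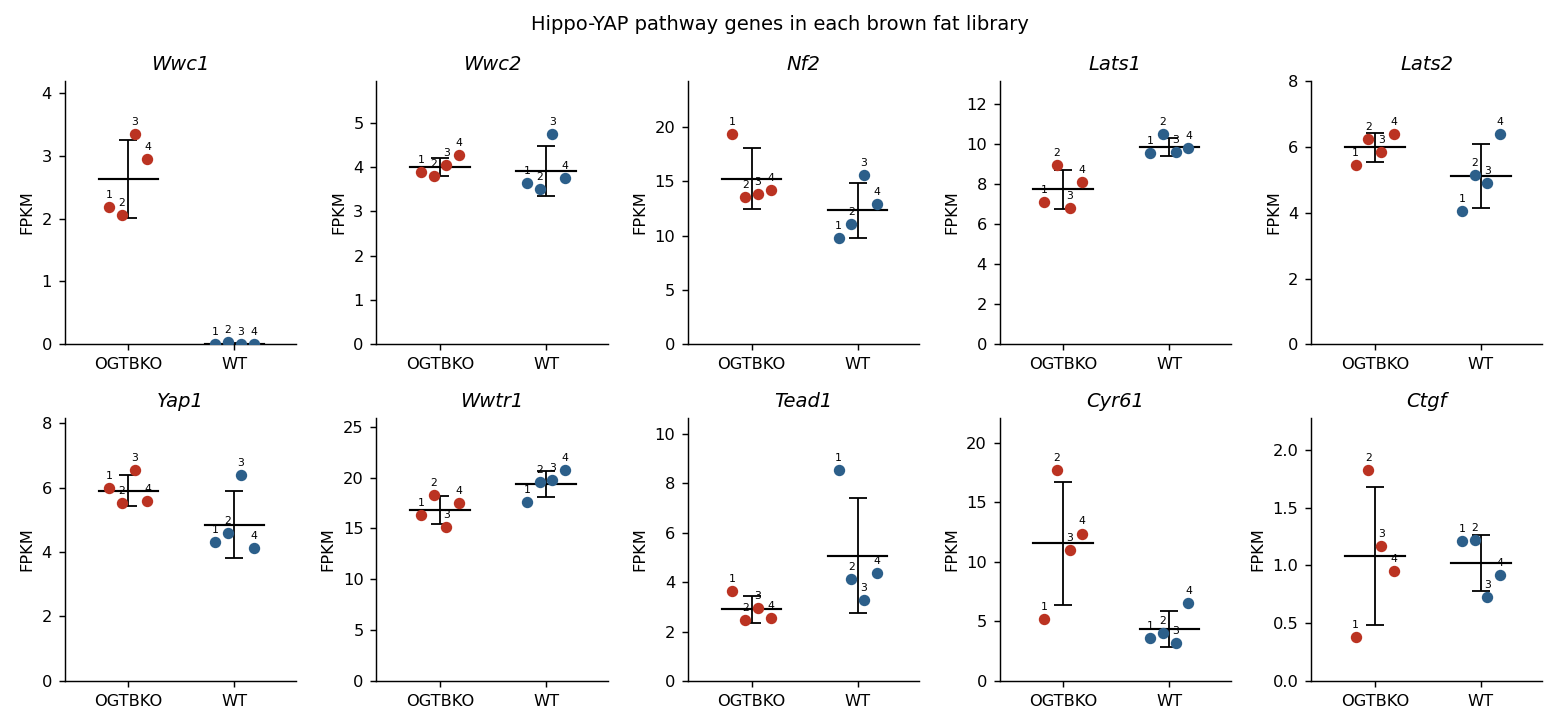
FPKM of the 10 pathway genes in each library, OGTBKO left and WT right of each panel, with the replicate number above each point, the mean as a line and the SD as a bar (n = 4 each). Wwc1 lies between 2.05 and 3.35 FPKM in OGTBKO and at or below 0.0282 FPKM in WT, while the other genes are present in both groups.

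Few genes of the table changed from near absence to clear expression. Counting genes with at most 3 reads over the 4 WT libraries and at least 1 FPKM in each OGTBKO library, a rule chosen after Wwc1 had been seen, gave 5 genes, of which 3 were protein-coding: Wwc1, Dbil5 and Morn5. The others were the pseudogene Gm47949 and the lincRNA Gm42903. Wwc1 rested on 845 OGTBKO reads, the other 4 on 55 to 223. The reverse rule gave 6 genes with 10 to 134 WT reads each, 0 of them protein-coding: the mitochondrial tRNA genes mt-Tg and mt-Ts1, Gm22573, Mir7669, Snord8 and n-R5s29, all short RNAs.

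Markers of other cell types were set beside the Wwc1 values, since KIBRA is known from epithelia, kidney and brain. The 9 epithelial and mesothelial markers summed to 0.210 to 0.478 FPKM in OGTBKO libraries and 0.151 to 0.749 FPKM in WT libraries, with Epcam at 0, 0, 0.0545 and 0.0352 FPKM in OGTBKO 1 to 4 and at 0 in all WT libraries. The 9 neuron and Schwann cell markers summed to 32.9 to 45.3 FPKM in OGTBKO and 39.8 to 58.7 FPKM in WT, 0 of the 3 tested passed (limma, with 1 lower at an unadjusted p under 0.05), and Dbh was at 0 in all libraries. The 7 white adipocyte markers summed to 156 to 203 FPKM in OGTBKO and 52.0 to 126 FPKM in WT, without overlap, with 2 of 5 tested higher (8.11% of all genes tested were), 1 after removal of each library's trend with GC content and length, and 4 without both libraries numbered 1. Hoxc10 was at 0 in all libraries. Their part in the Wwc1 result was not tested. Macrophage markers overlapped, at 242 to 564 FPKM in OGTBKO and 176 to 353 FPKM in WT summed over 8 genes, and 0 of 8 passed in limma (1 higher and 1 lower at an unadjusted p under 0.05). The fibroblast sums of 186 to 489 FPKM in OGTBKO spanned those of WT (265 to 338 FPKM, 9 genes, 0 passed in limma, also 0 at an unadjusted p under 0.05). Such sums can rest mostly on 1 gene. The highest value of a single gene in any library was 53.3 FPKM among the neuron and Schwann cell markers and 145 FPKM among the white adipocyte markers. It was 420.5 FPKM among the macrophage markers and 165 FPKM among the fibroblast markers.

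**Figure D2:**
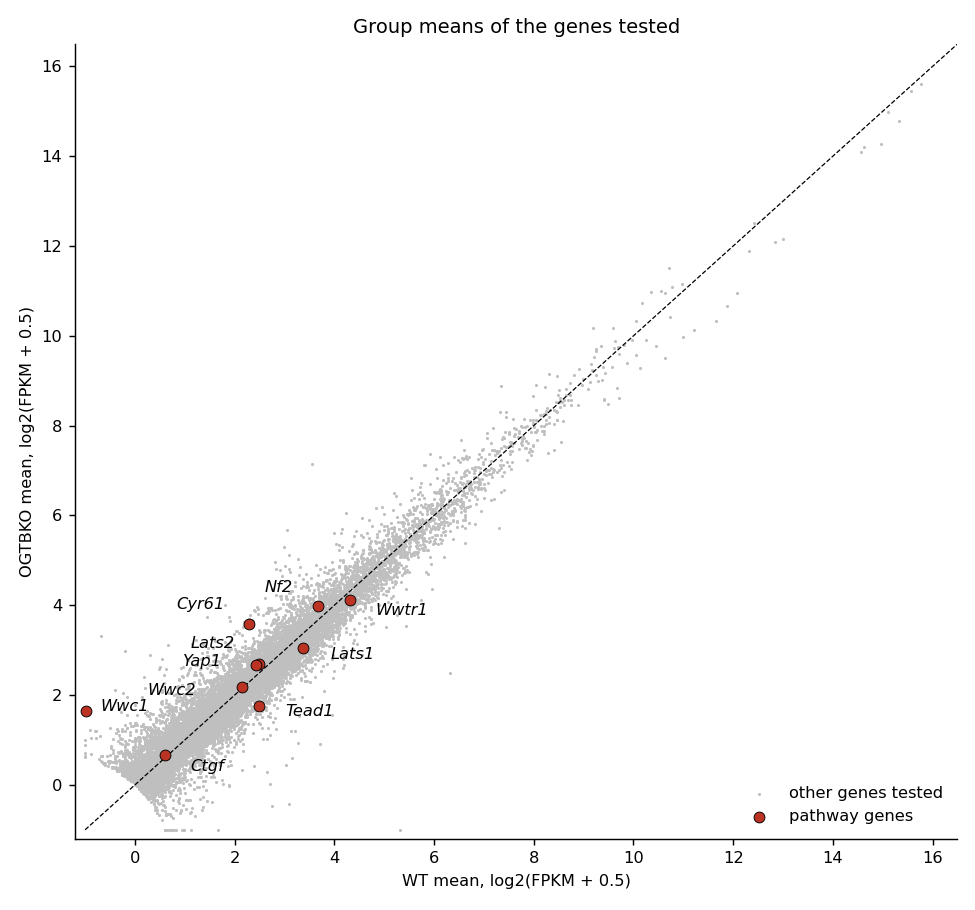
Mean FPKM plus 0.5, on a log2 scale, of the OGTBKO libraries (vertical axis) against that of the WT libraries (horizontal axis) for the genes tested, with the dashed line marking equal means and the 10 pathway genes in red. Wwc1 sits at the left edge of the plot, above the line, with Cyr61 the next farthest above it among the pathway genes.

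The promoters of Wwc1, Wwc2, Cyr61 and Amotl2 are shown because Wwc1 and Wwc2 are paralogues with different behaviour here, and because Cyr61 and Amotl2 are textbook YAP targets. Sequences are those of RefSeq on GRCm38.p6, from 250 bases before to 50 bases after the annotated start, 5′ to 3′ on the gene's strand. Capitals mark the TEAD-binding hexamer GGAATG or its reverse complement CATTCC, searched on both strands.
Wwc1 (chr11:35980478-35980777, minus): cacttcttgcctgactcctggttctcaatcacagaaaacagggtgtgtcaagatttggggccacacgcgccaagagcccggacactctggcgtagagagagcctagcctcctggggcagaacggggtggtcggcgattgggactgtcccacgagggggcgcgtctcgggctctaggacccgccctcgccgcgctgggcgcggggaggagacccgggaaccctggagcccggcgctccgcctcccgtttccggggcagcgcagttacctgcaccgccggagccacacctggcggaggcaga
Wwc2 (chr8:47990495-47990794, minus): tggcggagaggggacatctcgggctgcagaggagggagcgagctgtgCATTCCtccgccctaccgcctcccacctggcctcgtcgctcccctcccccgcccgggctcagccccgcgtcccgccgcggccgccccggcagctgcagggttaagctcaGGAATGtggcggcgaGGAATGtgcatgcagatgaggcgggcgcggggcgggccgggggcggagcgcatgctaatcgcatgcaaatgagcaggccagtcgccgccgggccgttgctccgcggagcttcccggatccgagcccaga
Cyr61 (chr3:145649936-145650235, minus): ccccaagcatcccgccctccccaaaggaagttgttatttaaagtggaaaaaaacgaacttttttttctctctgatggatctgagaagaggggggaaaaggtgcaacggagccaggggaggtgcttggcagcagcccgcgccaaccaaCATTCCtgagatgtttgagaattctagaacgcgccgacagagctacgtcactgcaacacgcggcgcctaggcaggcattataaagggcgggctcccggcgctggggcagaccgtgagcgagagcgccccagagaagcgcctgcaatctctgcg
Amotl2 (chr9:102717554-102717853, plus): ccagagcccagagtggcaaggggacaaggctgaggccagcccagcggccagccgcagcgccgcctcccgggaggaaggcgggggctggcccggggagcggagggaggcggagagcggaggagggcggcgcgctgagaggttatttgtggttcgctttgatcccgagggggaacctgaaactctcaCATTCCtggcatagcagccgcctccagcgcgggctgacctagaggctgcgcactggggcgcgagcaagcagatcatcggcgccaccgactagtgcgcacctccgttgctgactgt
The hexamer was in 14.7% of the 32851 promoters of this length. The Wwc1 window held 0 matches, and the Wwc2 window 3, beginning 203, 94 and 79 bases before the start. The Cyr61 window held 1 match, 103 bases before the start, and the Amotl2 window 1, 65 bases before it. Other YAP/TAZ targets, not shown, differed: the windows of F3 and Gadd45a held 0 matches, that of Axl 1 and that of Ankrd1 2. Of the 10 genes, 8 had a promoter in the sequences used (all but Tead1 and Ctgf), with 11 promoters between them. Counted per gene, 5 of these 8 had at least 1 match: Wwc2, Lats2, Yap1, Wwtr1 and Cyr61. The 14.7% is per promoter, so the 2 shares are not alike. The Lats2 match began 4 bases after the start of 1 promoter, and its other promoter held 0. The windows shown were all rich in CpG, against a median of 7 CG pairs over all promoters. Wwc1 held 27 pairs, Wwc2 34, Cyr61 20 and Amotl2 26. A match is only a run of letters and does not show binding.

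Genes beside Wwc1 were mostly silent in both groups, and 1 close neighbour was higher in OGTBKO tissue. Of 12 annotated genes within 500 kb of the Wwc1 gene body, 6 were at 0 in all libraries, 3 (Tenm2, Mir218-2 and Gm12124) had at most 9 reads in any library, and 3 were tested. Rars, which encodes cytosolic arginyl-tRNA synthetase and begins on the same strand 3.89 kb beyond the end of Wwc1, rose. It measured 8.32, 7.85, 9.06 and 8.03 FPKM in OGTBKO 1 to 4 and 6.70, 4.76, 5.06 and 5.23 FPKM in WT 1 to 4. The groups did not overlap (log2 0.58 ± 0.12 SE, limma adjusted p = 0.0147, and 0.0527 without OGTBKO 3). Of all genes tested, 8.11% were called higher and 11.1% were higher in OGTBKO without overlap. Pank3, a pantothenate kinase gene of coenzyme A synthesis, averaged 52.5 ± 5.20 FPKM in OGTBKO and 52.0 ± 7.55 FPKM in WT (SD, n = 4 each; log2 0.02, 95% interval -0.28 to 0.31, adjusted p = 0.937 in limma). Slit3, a guidance ligand gene, averaged 4.80 ± 1.64 and 4.39 ± 0.825 FPKM in OGTBKO and WT (SD, n = 4 each; log2 0.07, 95% interval -0.48 to 0.62, adjusted p = 0.874 in limma). Upstream, Tenm2 stayed at or below 0.0478 FPKM in every library. The sources used here do not say whether strand was used in counting.

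**Figure D3:**
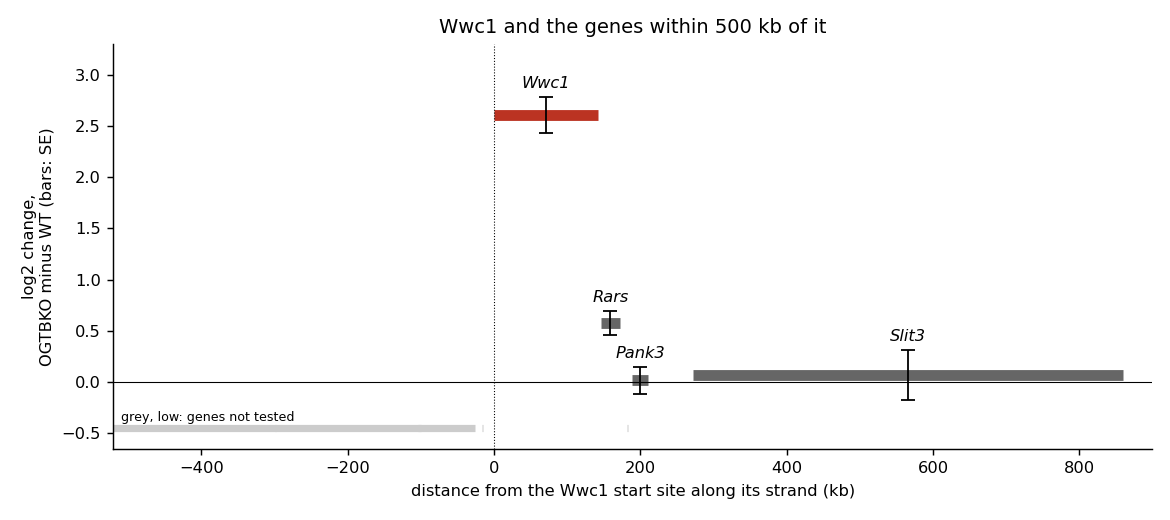
Log2 change, OGTBKO minus WT (vertical axis, bars are SE), of Wwc1 and of the genes within 500 kb of it that were tested, each drawn over its extent along the strand of Wwc1 in kb from the Wwc1 start site, with untested genes in light grey at the foot. Wwc1 stands at 2.61, Rars just beyond its end at 0.58, and Pank3 and Slit3 near 0.

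The other scaffolds showed little of the difference seen for Wwc1. Wwc2, the paralogue of KIBRA, measured 3.90, 3.79, 4.05 and 4.27 FPKM in OGTBKO 1 to 4 and 3.64, 3.51, 4.76 and 3.75 FPKM in WT 1 to 4. These values overlapped (log2 0.04 ± 0.11 SE). Wwc1 stood at 0.561, 0.542, 0.828 and 0.691 times the Wwc2 level in OGTBKO 1 to 4, against at most 0.00802 times in WT libraries. The summed level of the pair was 5.84 to 7.40 FPKM in OGTBKO and 3.54 to 4.76 FPKM in WT. Nf2, whose product Merlin links the membrane to LATS, measured 19.4, 13.5, 13.8 and 14.2 FPKM in OGTBKO 1 to 4 and 9.73, 11.1, 15.6 and 12.9 FPKM in WT 1 to 4. These overlapped as well (log2 0.30 ± 0.17 SE), and OGTBKO 1, the library with most muscle RNA, was well above the rest of its group. Without both libraries numbered 1 the Nf2 difference was 0.08.

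The LATS kinases differed in sign, and neither was called. Lats1 measured 7.11, 8.97, 6.81 and 8.11 FPKM in OGTBKO 1 to 4 and 9.59, 10.5, 9.60 and 9.82 FPKM in WT 1 to 4, without overlap, and lower in OGTBKO (log2 -0.34 ± 0.10 SE). The difference shrank to -0.16 once the trend of each library with GC content and length was removed; Lats1 has the lowest GC content of the 10 genes, 43.0%, and Wwc1 the highest, 57.1%. Lats2, which is itself a YAP target in feedback, measured 5.44, 6.25, 5.85 and 6.41 FPKM in OGTBKO 1 to 4 and 4.06, 5.14, 4.92 and 6.41 FPKM in WT 1 to 4, overlapping at the top (log2 0.22 ± 0.13 SE). The ratio of Lats1 to Lats2 was 1.31, 1.43, 1.16 and 1.27 in OGTBKO 1 to 4 and 2.36, 2.05, 1.95 and 1.53 in WT 1 to 4. These ratios did not overlap between the groups, and 22.5% of single genes tested did not either. They were formed with the comparison in view and were not computed with the GC and length trend removed. With it removed, the log2 difference was -0.16 for Lats1 and 0.20 for Lats2.

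Neither coactivator was called, and Wwtr1 (TAZ) was the more abundant coactivator in all libraries. It measured 16.4, 18.3, 15.1 and 17.5 FPKM in OGTBKO 1 to 4 and 17.6, 19.6, 19.7 and 20.7 FPKM in WT 1 to 4 (log2 -0.20 ± 0.10 SE), with 1 OGTBKO library inside the WT range. Yap1 measured 5.99, 5.51, 6.53 and 5.57 FPKM in OGTBKO 1 to 4 and 4.30, 4.59, 6.40 and 4.11 FPKM in WT 1 to 4 (log2 0.28 ± 0.14 SE), and WT 3 alone reached the OGTBKO range. With the GC and length trend removed, the log2 difference was -0.09 for Wwtr1 and 0.43 for Yap1. With library totals it was -0.09 and 0.38. Wwtr1 exceeded Yap1 by a factor of 2.32 to 3.32 in OGTBKO and 3.08 to 5.04 in WT libraries. Tead1, a DNA-binding partner of both, measured 3.65, 2.45, 2.96 and 2.55 FPKM in OGTBKO 1 to 4 and 8.53, 4.13, 3.29 and 4.36 FPKM in WT 1 to 4 (log2 -0.64 ± 0.25 SE). The groups overlapped through WT 3 and OGTBKO 1. TEAD1 is also abundant in muscle, and the libraries with the highest muscle marker sum of their group, OGTBKO 1 and WT 1, also had its highest Tead1. The part of muscle RNA in the Tead1 values was not tested. Without both libraries the difference was -0.48, and without WT 1 alone it was -0.38. The 4 TEAD genes together summed to 3.99 to 5.33 FPKM in OGTBKO and 5.64 to 10.7 FPKM in WT libraries, with Tead1 contributing 57.9 to 68.5% and 58.4 to 79.5% of them in OGTBKO and WT.

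The secreted targets differed from each other. Cyr61 measured 5.16, 17.7, 11.0 and 12.4 FPKM in OGTBKO 1 to 4 and 3.61, 4.05, 3.18 and 6.57 FPKM in WT 1 to 4. All OGTBKO libraries but OGTBKO 1 stood above all WT libraries, and that one lay below WT 4 (log2 1.24 ± 0.34 SE). Ctgf measured 0.383, 1.82, 1.17 and 0.954 FPKM in OGTBKO 1 to 4 and 1.21, 1.22, 0.726 and 0.919 FPKM in WT 1 to 4, with the WT values inside the OGTBKO range (log2 -0.01 ± 0.28 SE). It rested on 18 to 84 reads in OGTBKO and 22 to 50 in WT libraries. Without both libraries numbered 1 the Ctgf difference was 0.30, and its sign was kept in 10 of 17 alternatives. Cyr61 exceeded Ctgf by a factor of 9.45 to 13.5 in OGTBKO and 2.98 to 7.15 in WT libraries, without overlap. This ratio was formed with the comparison in view, and 22.5% of single genes tested did not overlap either. OGTBKO 1 was the lowest and OGTBKO 2 the highest of its group for both genes.

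All 10 genes passed the filter on low values (a mean of at least 0.5 FPKM), Wwc1 only through the OGTBKO libraries. In the limma fit 2 of the 10, Wwc1 and Cyr61, were called, where 15.6% of all genes tested were, and the groups did not overlap for 2, Wwc1 and Lats1, where 22.5% of all genes did not. Since the genes were chosen with this comparison in view, these counts carry no test. The Cyr61 call stood in 8 of 17 alternatives, and it was absent with the GC and length trend removed, with library totals, with no filter, and without OGTBKO 2, 3 or 4 or WT 1, 2 or 3. Lats1 was called without OGTBKO 2, and Yap1 without WT 3. Ordered by level, OGTBKO tissue had Wwtr1, Nf2 and Cyr61 first with overlapping ranges, then Lats1, whose range still overlapped that of Cyr61. Lats2 and Yap1 followed, overlapping each other but no longer Lats1, then Wwc2, then Tead1 and Wwc1 with overlapping ranges, and Ctgf last. In WT tissue Wwtr1 came first, clear of Nf2, then Lats1, and below it Lats2, Tead1, Yap1, Cyr61 and Wwc2 ran together with each range overlapping the next, above Ctgf and Wwc1. The spread within a group was widest for Ctgf and Cyr61 in OGTBKO (coefficients of variation 55.0% and 44.5%) and least for Wwc2 (5.24%), while in WT, Wwc1 aside, it was widest for Tead1 (46.2%) and least for Lats1 (4.52%).

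The wider machinery of the pathway held calls in both directions, 10 among 65 genes tested, where 15.6% of all genes tested were called. Of 82 genes in 5 lists (core kinases and adaptors, the STRIPAK and junction proteins that hold the pathway back, polarity and junction inputs, TEAD partners, and proteins that retain or degrade YAP), 65 were tested, 4 were higher, 6 lower and 55 not called, where 8.11% of all genes were higher and 7.46% lower. Their median log2 change was -0.08, beside 0.00 for all genes tested, and 0.03 with library totals as the denominator, which moved the median of all genes to 0.09, where 5 were higher and 1 lower. After removal of each library's trend with GC content and length, 1 was higher and 3 lower, and without both libraries numbered 1, 4 were higher and 7 lower. The count of 10 fell to 3 without OGTBKO 3, to 4 without OGTBKO 2, WT 2 or WT 4, and to 6 without OGTBKO 4. In the same fits the 2050 calls over all genes fell too. They numbered 694 without OGTBKO 3, 1173 without OGTBKO 2, 771 without WT 2, 1188 without WT 4 and 957 without OGTBKO 4.

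Among core components, both LATS cofactors fell, and the MST kinases were not called. Mob1a, which binds and activates LATS, averaged 21.8 ± 2.98 FPKM in OGTBKO and 30.1 ± 1.28 FPKM in WT (SD, n = 4 each; log2 -0.46 ± 0.11 SE, limma adjusted p = 0.0273). Its paralogue Mob1b fell to 4.96 ± 0.527 FPKM in OGTBKO, against 7.68 ± 1.46 FPKM in WT (limma adjusted p = 0.0296). Taok1, a kinase that activates the MST kinases, fell by 0.42 on the log2 scale (limma adjusted p = 0.0276), and Map4k1, a kinase mostly of blood cells, rose by 0.92 (limma adjusted p = 0.0300). Stk3 and Stk4, the MST kinases, averaged 2.40 ± 0.164 and 5.71 ± 0.433 FPKM in OGTBKO and 2.62 ± 0.715 and 5.54 ± 0.501 FPKM in WT (SD, n = 4 each). Their log2 differences of -0.08 (95% interval -0.42 to 0.26) and 0.04 (-0.18 to 0.26) did not pass, nor did that of their partner Sav1 (-0.20, 95% interval -0.55 to 0.15). After the GC and length correction Mob1a kept its call (limma adjusted p = 0.0459) and Mob1b (0.303), Taok1 (0.231) and Map4k1 (0.0680) did not. With library totals Mob1a (0.151), Mob1b (0.159) and Taok1 (0.0915) lost their calls, and Map4k1 (0.0411) kept its call. Without both libraries numbered 1, Mob1a (0.0552) and Mob1b (0.0695) lost their calls, and Taok1 (0.0417) and Map4k1 (0.0341) kept theirs. Each of the 4 lost its call in at least 4 of the 8 fits without a single library: Mob1a without OGTBKO 1, 3 or 4 or WT 2 or 4 (0.0514 to 0.0815), Mob1b without OGTBKO 1, 2 or 3 or WT 2 or 4 (0.0605 to 0.0844), Taok1 without OGTBKO 2 or 3 or WT 2 or 4 (0.0529 to 0.0823) and Map4k1 without OGTBKO 2, 3 or 4 or WT 1 or 2 (0.0512 to 0.0904).

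Vgll4 competes with YAP for TEAD and so restrains its targets. It was the 1 called gene of the 7 tested in the list of TEAD partners, where 15.6% of all genes tested were called. Vgll4 measured 13.5, 8.35, 8.12 and 10.3 FPKM in OGTBKO 1 to 4 and 15.7, 17.9, 19.9 and 19.2 FPKM in WT 1 to 4. The groups did not overlap (log2 -0.85 ± 0.16 SE, limma adjusted p = 0.0127), and the call held in all 17 alternatives. In its list 0 genes were higher in limma (8.11% of all genes tested were), also 0 at an unadjusted p under 0.05. Tead3 and Tead4 measured 0.443 ± 0.107 and 0.597 ± 0.130 FPKM in OGTBKO and 0.610 ± 0.197 and 0.941 ± 0.259 FPKM in WT (SD, n = 4 each; limma adjusted p = 0.452 and 0.178). Tead2, at 0.552 ± 0.185 FPKM in OGTBKO and 0.384 ± 0.0642 FPKM in WT, was under the filter.

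Other calls lay among junction, retention and STRIPAK genes. Dlg1, a polarity scaffold, fell to 5.03 ± 0.356 FPKM in OGTBKO, against 7.94 ± 0.717 FPKM in WT (SD, n = 4 each; limma adjusted p = 0.00805, and 0.0551 with library totals). Csnk1e, a kinase of the family that marks YAP for degradation after LATS, rose by 0.48 on the log2 scale (limma adjusted p = 0.0104). Wtip, an Ajuba family protein that binds LATS, averaged 2.71 ± 0.303 FPKM in OGTBKO and 1.60 ± 0.415 FPKM in WT (SD, n = 4 each; limma adjusted p = 0.0280, or 0.290 after the GC and length correction). Ppp2ca, the catalytic subunit of the phosphatase within STRIPAK, fell by 0.34 on the log2 scale with limma adjusted p = 0.0489, a call that ended in 13 of 17 alternatives. Wtip lost its call without OGTBKO 2, 3 or 4 or WT 4 (0.0571 to 0.0748), and Ppp2ca without any single library other than OGTBKO 4 (0.0570 to 0.121).

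**Figure D4:**
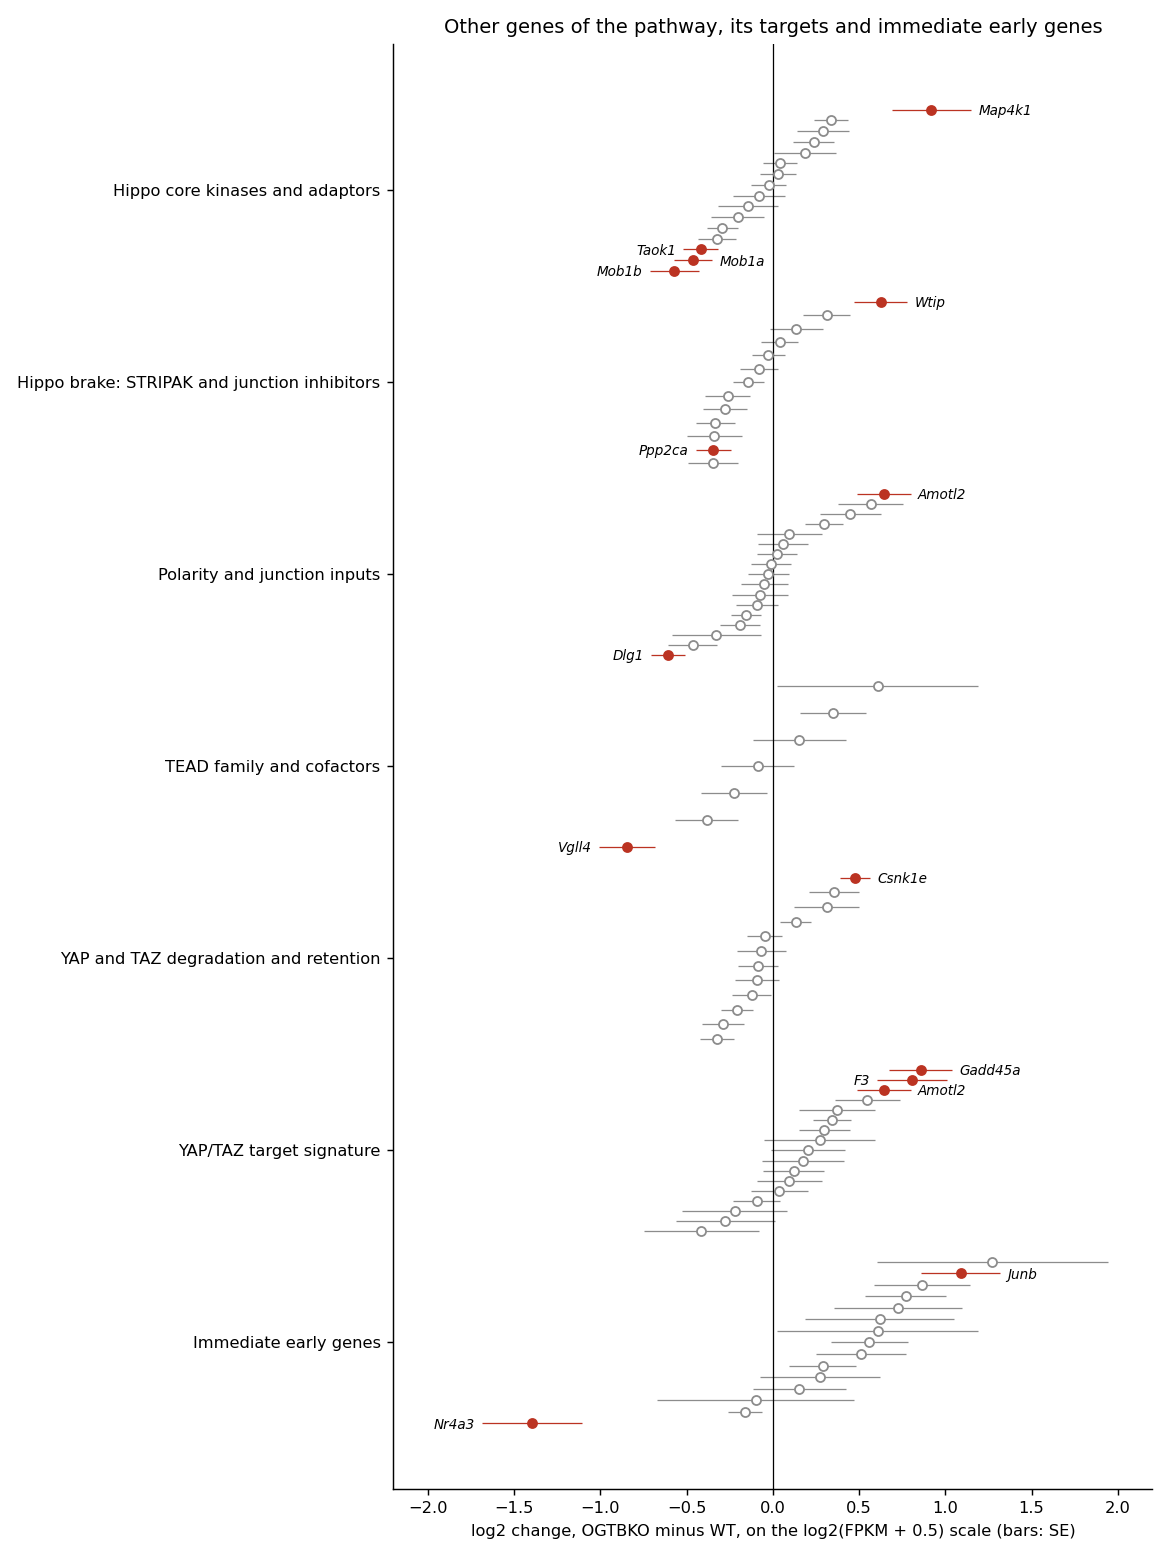
Log2 change, OGTBKO minus WT (horizontal axis, bars are SE), of each gene tested in the 5 machinery lists, the YAP/TAZ target list and the immediate early genes, with called genes filled red and named (Amotl2 is in 2 lists). Nr4a3 at -1.40 and Vgll4 at -0.85 lie farthest left, and Junb at 1.09 is farthest right among the called genes.

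Known YAP/TAZ targets were called only upward, a few of them. Of 25 listed targets outside the 10 genes, 17 were tested, 3 were higher and 0 lower (limma; 5 higher and 0 lower at an unadjusted p under 0.05), where 8.11% of all genes were higher and 7.46% lower. The median log2 change was 0.20, beside 0.00 for all genes tested, and 13 of the 17 were above 0. F3, the tissue factor that starts coagulation, measured 13.7, 22.9, 26.0 and 24.3 FPKM in OGTBKO 1 to 4 and 12.9, 11.8, 13.5 and 9.58 FPKM in WT 1 to 4. The groups lay apart by little, with OGTBKO 1 just above WT 3 (log2 0.81 ± 0.20 SE, limma adjusted p = 0.0294). Gadd45a, a stress gene of cell cycle arrest, averaged 1.08 ± 0.289 FPKM in OGTBKO and 0.366 ± 0.0879 FPKM in WT (SD, n = 4 each; log2 0.86 ± 0.18 SE, limma adjusted p = 0.0186). Amotl2, an angiomotin that binds YAP at junctions, measured 12.7, 18.2, 17.8 and 16.1 FPKM in OGTBKO 1 to 4 and 10.2, 11.5, 11.3 and 7.77 FPKM in WT 1 to 4 (log2 0.64 ± 0.16 SE, limma adjusted p = 0.0276, or 0.0729 after the GC and length correction). Axl, a receptor kinase, ranged from 6.91 to 14.6 FPKM in OGTBKO and from 6.37 to 9.53 FPKM in WT (log2 0.37, 95% interval -0.12 to 0.86, limma adjusted p = 0.275). Ankrd1, a widely used YAP target, was at most 0.158 FPKM in OGTBKO and 0.554 FPKM in WT libraries and was not tested.

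The target count rested on several libraries. It was 0 without OGTBKO 3 and without OGTBKO 4, and 1 without OGTBKO 2, WT 2 or WT 4. Without both libraries numbered 1 it was 3. Calls over all genes fell in the same fits, from 2050 to 694 without OGTBKO 3 and 957 without OGTBKO 4. They numbered 1173 without OGTBKO 2, 771 without WT 2 and 1188 without WT 4. Amotl2 and F3 lost their calls without OGTBKO 2, 3 or 4 or WT 2 or 4 (limma adjusted p 0.0516 to 0.0823 and 0.0692 to 0.0845), and Gadd45a without OGTBKO 3 or 4 (0.0554 and 0.0638). With no filter on low values F3 was at 0.0627 and Amotl2 at 0.0554. Of the other CCN genes, Nov (CCN3) was the single one tested, at 0.701, 3.48, 1.12 and 0.726 FPKM in OGTBKO 1 to 4 and 0.640 to 1.01 FPKM in WT (log2 0.46, limma adjusted p = 0.406), with OGTBKO 2 again highest. Of 10 tested actin and SRF target genes, 0 passed in limma, also 0 at an unadjusted p under 0.05 (median log2 0.13, and -0.02 without both libraries numbered 1).

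Immediate early genes, which answer to stimulation within minutes and among which Cyr61 is also counted, varied strongly between libraries. Egr1 measured 3.80, 24.7, 12.7 and 3.99 FPKM in OGTBKO 1 to 4 and 5.37, 1.46, 1.45 and 7.83 FPKM in WT 1 to 4, and Dusp1 11.4, 36.8, 30.5 and 23.3 FPKM in OGTBKO 1 to 4 and 11.7, 10.9, 11.8 and 34.0 FPKM in WT 1 to 4. OGTBKO 1 was the lowest and OGTBKO 2 the highest OGTBKO library for both, and WT 4 the highest WT library for both, as they were for Cyr61. Not all genes of the list kept this order: Nr4a3 was at 1.36 FPKM in OGTBKO 4 and at 0.264 to 0.353 FPKM in the other OGTBKO libraries. The part of such variation between libraries in the Cyr61 result was not tested. Of 15 tested, 1 was higher and 1 lower, where 8.11% of all genes were higher and 7.46% lower, with a median log2 change of 0.56, beside 0.00 for all genes tested. Junb, an AP-1 subunit, averaged 6.71 ± 1.70 FPKM in OGTBKO and 2.92 ± 0.875 FPKM in WT (SD, n = 4 each; log2 1.09 ± 0.23 SE, limma adjusted p = 0.0178, 0.0571 after the GC and length correction and 0.0585 without OGTBKO 3). Nr4a3, a nuclear receptor gene, fell to 0.570 ± 0.525 FPKM in OGTBKO, against 2.15 ± 0.492 FPKM in WT (SD, n = 4 each; limma adjusted p = 0.0168, 0.0543 to 0.0558 without OGTBKO 3 or WT 2, and 0.0569 without both libraries numbered 1).

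**Figure D5:**
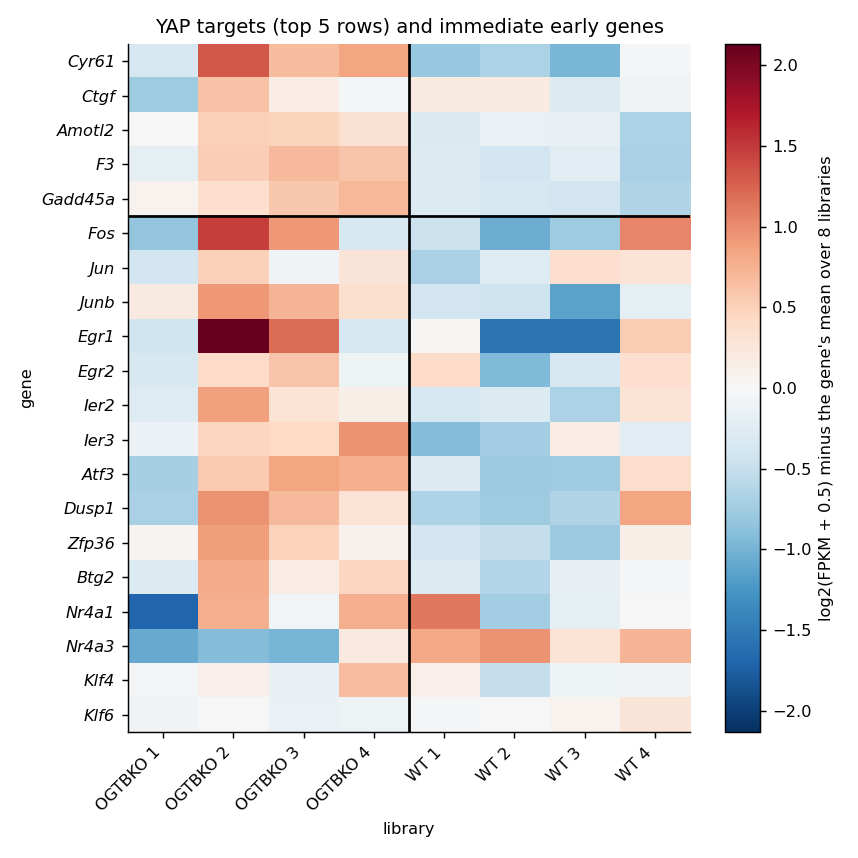
Log2(FPKM + 0.5) of Cyr61, Ctgf and the 3 called YAP/TAZ targets (top 5 rows) and of the 15 immediate early genes tested, each minus its mean over the 8 libraries, with OGTBKO libraries left of the vertical line and WT libraries right of it. OGTBKO 2 is red (above the mean) in most rows and OGTBKO 1 blue or pale, and within WT the Cyr61 row is highest in WT 4, where Fos and Dusp1 are also high.

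The genes whose profile came closest to Wwc1 over the 8 libraries differed in the size of their step between the groups. Among 10082 protein-coding genes with a mean of at least 1 FPKM, Pearson's r with Wwc1 on the log2(FPKM + 0.5) scale was above 0.9 for 392, and all 8 libraries, with the group difference in them, enter this measure. The 6 highest were Gm1673 (r = 0.995), the secreted factor gene Bmp8b (0.995), the transporter gene Slc35f6 (0.992), Prkrip1 (0.992), the melanosome regulator gene Mreg (0.989) and Cend1 (0.984), a gene of neuronal cell cycle exit. Gm1673, Slc35f6 and Prkrip1 all lie on chromosome 5, at mm10 positions 33983433, 30647933 and 136178127, and none of the 6 is on the chromosome of Wwc1. The shared chromosome was noticed after the ranking, and it was not tested. Gm1673 rested on 23 to 38 reads in OGTBKO and 2 to 4 in WT libraries. Spearman's rho of the 6 with Wwc1 was 0.83 to 0.95. Gm1673 averaged 2.58 ± 0.428 FPKM in OGTBKO and 0.325 ± 0.0726 FPKM in WT, and Bmp8b 7.37 ± 2.12 FPKM in OGTBKO and 0.372 ± 0.0581 FPKM in WT (SD, n = 4 each). Slc35f6 differed far less, at 4.84 ± 0.239 FPKM in OGTBKO and 3.57 ± 0.0779 FPKM in WT. Ranked by Spearman's rho instead, 0 of these 6 were among the first 6. After removal of the group means, the closest of the 10082 were Mypop (r = 0.968), Zbtb2 (0.960) and Nfu1 (0.940). Wwc1 was close to silent in WT, so this measure rests almost wholly on the 4 OGTBKO libraries. With so few points, some of many genes reach a high r by chance. Over all 8 libraries Zbtb2 had r = -0.512, and it averaged 1.17 ± 0.265 FPKM in OGTBKO and 1.43 ± 0.0467 FPKM in WT. Nfu1, a scaffold gene of iron-sulfur cluster assembly, averaged 12.1 ± 1.80 FPKM in OGTBKO and 6.65 ± 0.407 FPKM in WT (SD, n = 4 each).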

How the data were processed

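RNA of dissected brown fat was sequenced with a NEBNext Ultra kit, per the labels' protocols. Alignment with HISAT2 2.0.5, counting with featureCounts 1.5.0-p3 and the mm10 build are named, per the submitters' processing notes, with no strand setting. The authors deposited FPKM for 54532 genes in 8 libraries, with gene lengths. FPKM times length gave whole multiples of 1 read for 100% of values above 0 (tolerance 0.001), so reads were back-calculated. Their scaling denominators were 0.790 (WT 3) to 1.13 (OGTBKO 3) times the library total, so the values were already scaled between libraries.

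The members and gene lists were chosen with earlier results of these data known. Values were analysed as log2(FPKM + 0.5) for the 13171 genes with a mean of at least 0.5 FPKM; such changes understate those of low genes. Groups were compared with limma 3.58.1 in R 4.3.3 (two-sided moderated test, no covariates, prior variance following mean level). Adjusted p-values are Benjamini-Hochberg over every gene tested, and genes with adjusted p under 0.05 are called. The step was tested on simulated reads. List genes named were the called ones, up to 6 per list by p, plus core genes fixed by name; neighbours lay within 500 kb. GC content came from the longest GENCODE M21 transcript (99.9% of tested genes). Alternatives changed the pseudocount, filter, scaling, GC and length trend, variance trend, replicate block and libraries.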

Additional observations from a re-analysis of the deposited data

Results flagged for a closer look

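Within groups of 4, 6 single libraries lay far from the rest of their group, judged by the gap to the nearest library over the whole range, out of 98 groups of values tested; chance marks about 1 in 20. Nf2 measured 19.4 FPKM in OGTBKO 1, against 13.5 to 14.2 FPKM in the other OGTBKO libraries. Acta1 measured 625 FPKM in OGTBKO 1, against 0.606 to 2.93 FPKM in the other OGTBKO libraries, and 255 FPKM in WT 1, where the other WT libraries had 0.307 to 21.6 FPKM. Nr4a3 measured 1.36 FPKM in OGTBKO 4, against 0.264 to 0.353 FPKM in the other OGTBKO libraries. Ankrd1 measured 0.554 FPKM in WT 4, where WT 1 to 3 had 0 to 0.0817 FPKM. Wwc1 measured 0.0282 FPKM, 2 reads, in WT 2, against 0 in the other WT libraries. With the others at 0, any read in WT 2 would have been marked, so the rate of 1 in 20 does not apply to it.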

How the results depend on the processing

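The Wwc1 difference of 2.61 moved to 4.66 with a pseudocount of 0.1 FPKM and to 1.84 with 1 FPKM. It ran from 2.50 to 2.70 with single libraries left out. All genes called numbered 2050, against 1229 with library totals as the denominator, 1229 with no filter on low values, 888 with the replicate block, and 694 to 2115 with single libraries left out. The machinery count of 10 was 4 with the GC and length trend removed, 6 with library totals, 5 with no filter and 4 with the replicate block, and 3 to 12 with single libraries left out. The target count of 3 was 1 with no filter and 1 with the replicate block, and 0 to 4 with single libraries left out. The cause of these moves was not tested.

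Replicate numbers are not said to pair the samples: deviations of same-numbered libraries correlated at 0.220, 0.169, 0.0143 and -0.00696, and 2 of the 4 OGTBKO libraries correlated best with their own number. Calls of Csnk1e (limma adjusted p = 0.0523), F3 (0.0634) and Gadd45a (0.0658) were among those that ended with the replicate block. Of the 17 called genes among Ogt, Ucp1, Rars and the genes named from the lists, 2 (Ogt and Vgll4) kept the call in all 17 alternatives, 15 lost it in at least 1, 12 of them with a single library left out, and 0 reversed. Leaving out both libraries numbered 1 was chosen after the data were seen; 1920 genes were then called. At this depth, Ctgf (18 to 84 reads) is among the least precise of the 10 genes.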
